A study of Mus musculus with 8 samples.

Results

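Wnt proteins are lipid-modified secreted ligands that signal through Frizzled receptors, and the genes described here are those of the mouse Wnt pathway outside norrin signalling. They were chosen by symbol, with earlier results of these data known. The list holds the Wnt ligands and their acylation and secretion factors, the Frizzled, Ror and Ryk receptors and the Sfrp, Dkk and Wif1 antagonists. It also holds the R-spondin system, the cytoplasmic transducers and the Tcf7 family. Fzd4, Sfrp2 and Dkk3 were left out. The rule found 41 of the 16109 genes in the count table, and all 41 passed the expression filter. By role they were 9 ligands, 2 acylation and secretion factors, 9 Frizzled receptors, 3 other receptors, 4 antagonists, 4 genes of the R-spondin system, 7 cytoplasmic transducers and 3 members of the Tcf7 family.

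In the canonical branch of the pathway a ligand joins a Frizzled receptor to the co-receptor Lrp5 or Lrp6, Dishevelled proteins are recruited, the complex of Apc, Axin and Gsk3 that marks beta-catenin for destruction is held back, and beta-catenin turns on genes together with Tcf and Lef factors. Other branches run through Ror, Ryk and planar cell polarity proteins. In the eye, Wnt signalling is known for patterning the ciliary margin and the pigment epithelium, and mouse retinal macrophages use Wls-dependent Wnt release to restrain vessel branching.

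Messenger RNA was sequenced from retinas of C57BL/6 mice at postnatal day 5, after the embryonic hyaloid vessels had been dissected away. The labels name 4 libraries as C3 KO, from mice deficient in complement component C3, and 4 as wild type (WT). Tissue, strain and age are the same under both labels. The sources used here do not give how many animals stand behind a library, how C3 was disrupted or whether controls were littermates. P-values therefore measure the spread between these libraries, which may be technical.

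The labels are in doubt. The targeted gene, C3, averaged 84.5 ± 3.49 CPM in the C3 KO-labelled libraries and 2.59 ± 0.642 CPM in the WT-labelled libraries (SD, n = 4 each; CPM is the read count after scaling every library to an equal total). Every direction below is that of the C3 KO-labelled libraries relative to the WT-labelled ones and rests on those labels. Total reads ran from 16503564 to 19608824 per library. Apart from C3, sex-linked transcripts differed between the labels. The mean of 4 Y-linked genes was 74.8 to 88.2 CPM in the C3 KO-labelled libraries, against 0.448, 5.05 and 3.71 CPM in WT-labelled replicates 1, 2 and 4 and 75.8 CPM in WT-labelled replicate 3. Xist, the transcript of the inactive X chromosome, was at 1.48 to 2.65 CPM in the C3 KO-labelled libraries, against 2441, 2369 and 2194 CPM in WT-labelled replicates 1, 2 and 4 and 295 CPM in WT-labelled replicate 3. No WT-labelled library therefore matched the C3 KO-labelled ones in both. Sex composition thus differed between the labels, and its part in the differences below cannot be told apart from that of the label. Of 10 retinal identity genes 9 were measured, and their summed level was 4160 to 4636 CPM in the C3 KO-labelled libraries and 4581 to 4934 CPM in the WT-labelled ones.

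Across the 41 Wnt pathway genes 3 were higher and 3 lower in the C3 KO-labelled libraries, and 35 were not called. A gene was called at an edgeR quasi-likelihood adjusted p below 0.05, computed over all 15850 tested genes. The called share of the Wnt genes, 14.6%, lies beside a background of 14.3% of all tested genes, of which 8.33% were higher and 5.98% lower. The number of calls is therefore no feature of these genes. Their median log2 fold change was -0.0023, against 0.0044 for all tested genes, with 20 positive and 21 negative values. The genes that rose were Wls, Sfrp1 and Apc, and those that fell were Fzd5, Fzd2 and Wnt5b. Sfrp2 and Dkk3, left out of the list, were called lower as well.

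**Figure D1:**
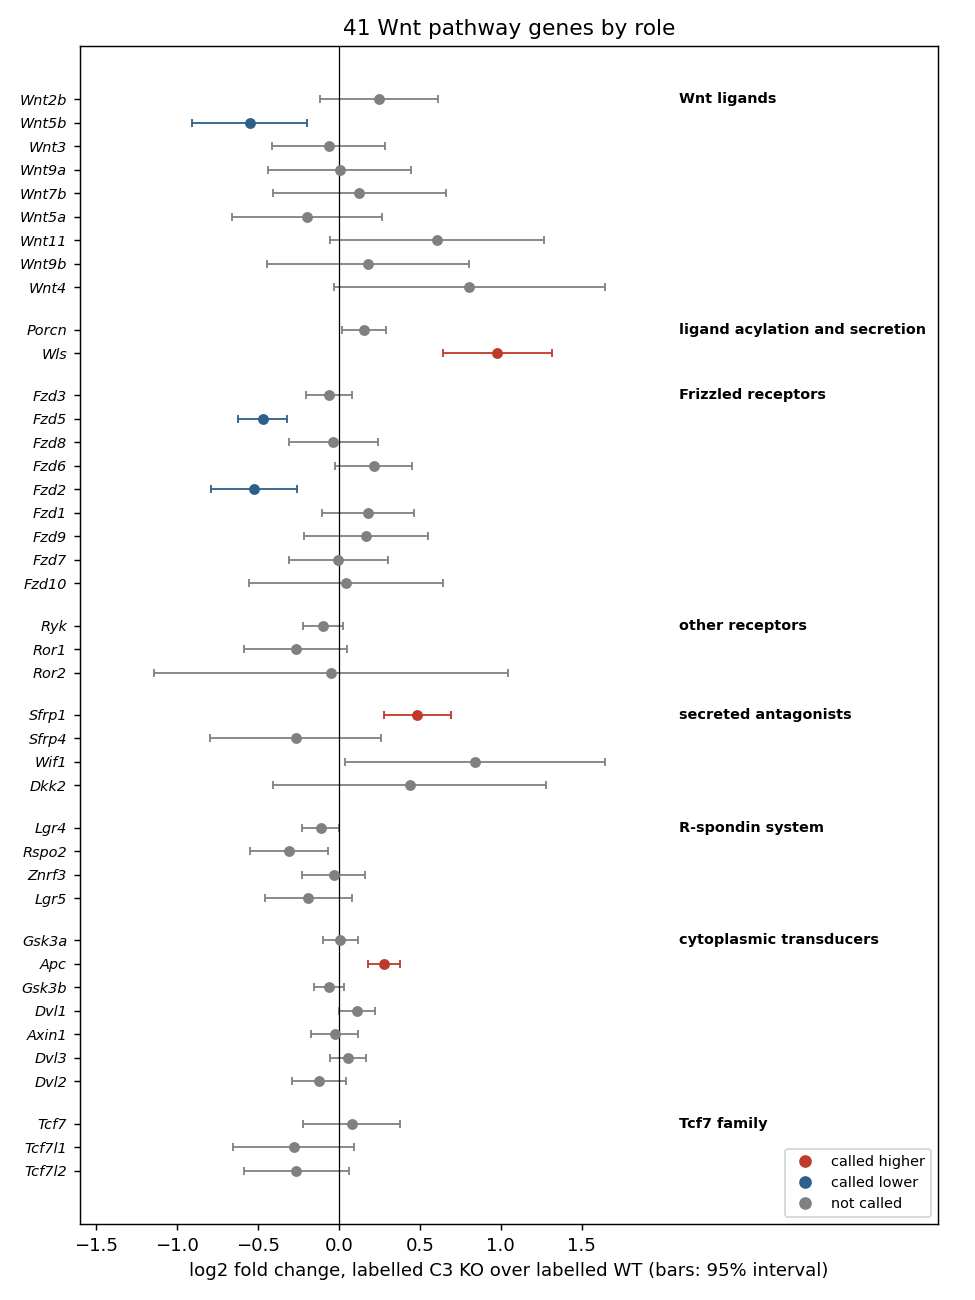
Log2 fold change (C3 KO-labelled over WT-labelled, x axis) of the 41 Wnt pathway genes, grouped by role and ordered by level within a role. Points are edgeR estimates with 95% intervals, and the 6 coloured genes, 3 on each side of 0, were called.

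Levels per transcript length spanned a wide range between roles. RPKM, reads scaled to gene length and library total, was taken from the authors' log2 values. Cytoplasmic transducers were highest, from 68.3 RPKM for Gsk3a to 3.99 RPKM for Dvl2 as means over all 8 libraries. Ligands were low, from 2.28 RPKM for Wnt2b to 0.229 RPKM for Wnt4. Summed over the 9 ligands the level was 7.78 to 9.28 RPKM in the C3 KO-labelled libraries and 8.18 to 9.42 RPKM in the WT-labelled ones, and the groups overlapped. The 9 Frizzled receptors summed to 28.8 to 30.5 RPKM in the C3 KO-labelled libraries and 30.9 to 35.2 RPKM in the WT-labelled libraries, with no overlap. That sum includes the called gene Fzd5, at a mean of 6.1 RPKM in the C3 KO-labelled and 8.5 RPKM in the WT-labelled libraries. The R-spondin system did not overlap either, at 19.5 to 21.8 RPKM in C3 KO-labelled and 22.5 to 23.8 RPKM in WT-labelled libraries. Nor did Porcn and Wls together, at 14.8 to 16.9 RPKM in C3 KO-labelled and 12.1 to 13.5 RPKM in WT-labelled libraries.

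**Figure D2:**
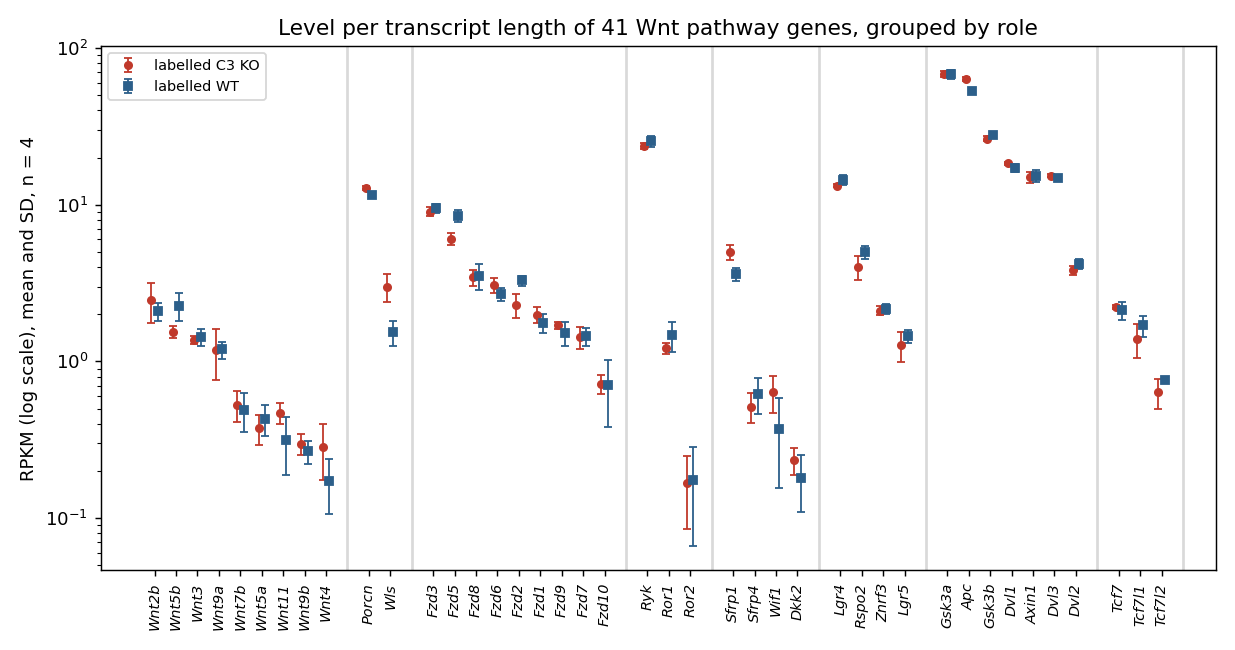
RPKM (log scale, y axis) of each Wnt pathway gene in the C3 KO-labelled libraries (circles, left) and the WT-labelled libraries (squares, right), as mean and SD of 4 libraries. Gsk3a and Apc stand highest, and the ligands lie below 3 RPKM.

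Wls, the membrane carrier that takes acylated Wnt proteins to the cell surface, changed most among the called genes. C3 KO-labelled replicates 1 to 4 held 7.79, 9.00, 9.87 and 12.6 CPM of Wls, and WT-labelled replicates 1 to 4 held 6.00, 4.77, 5.21 and 3.80 CPM. Every C3 KO-labelled library lay above every WT-labelled library. The mean was 9.82 ± 2.05 CPM in the C3 KO-labelled and 4.94 ± 0.915 CPM in the WT-labelled libraries (SD, n = 4 each), 1.97-fold higher (log2 fold change 0.98 ± 0.16 (SE), edgeR adjusted p = 0.000312). Porcn, the membrane enzyme that acylates Wnt proteins, stood at 37.1, 37.4, 39.5 and 39.3 CPM in C3 KO-labelled replicates 1 to 4 and at 34.9, 35.9, 34.5 and 32.4 CPM in WT-labelled replicates 1 to 4. Its libraries did not overlap, but it was not called (log2 fold change 0.15, 95% interval 0.018 to 0.29, edgeR adjusted p = 0.122).

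Beside Wls, markers of several cell types differed between the labels. Of 15 pigment epithelium markers 10 were higher and none lower, and their summed level was 325, 329, 316 and 342 CPM in C3 KO-labelled replicates 1 to 4 against 187, 150, 154 and 128 CPM in WT-labelled replicates 1 to 4. The WT-labelled libraries kept the same order for Wls as for this sum, and C3 KO-labelled replicate 4 was highest in both. The other C3 KO-labelled libraries did not keep that order. None of the 15 markers averaged 0. Ttr, the thyroxine carrier, was at 78.5 CPM in the C3 KO-labelled and 28.4 CPM in the WT-labelled libraries. The visual cycle isomerase Rpe65, at 2.02 CPM in the C3 KO-labelled and 1.17 CPM in the WT-labelled libraries, was not called (edgeR adjusted p = 0.111). Best1, Lrat, Slc45a2 and Rrh were not called either. Rrh averaged lower, at 18.9 CPM in the C3 KO-labelled and 22.9 CPM in the WT-labelled libraries. Of 10 microglia markers 3 were higher and none lower, with a summed level of 150 to 178 CPM in the C3 KO-labelled and 111 to 142 CPM in the WT-labelled libraries. Fibroblast markers were higher too, with values given beside Sfrp1. All 4 measured red blood cell markers were lower, with a sum of 17.1 to 22.2 CPM in the C3 KO-labelled and 26.1 to 47.2 CPM in the WT-labelled libraries. Of 6 astrocyte markers 2 were higher, of 8 endothelial markers 1 was higher, of 2 tested lens markers 1 was lower, and of 6 pericyte markers none was called. The part of these cell types in the Wls result was not tested. In whole retina more cells of a type and more RNA per cell cannot be told apart.

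**Figure D3:**
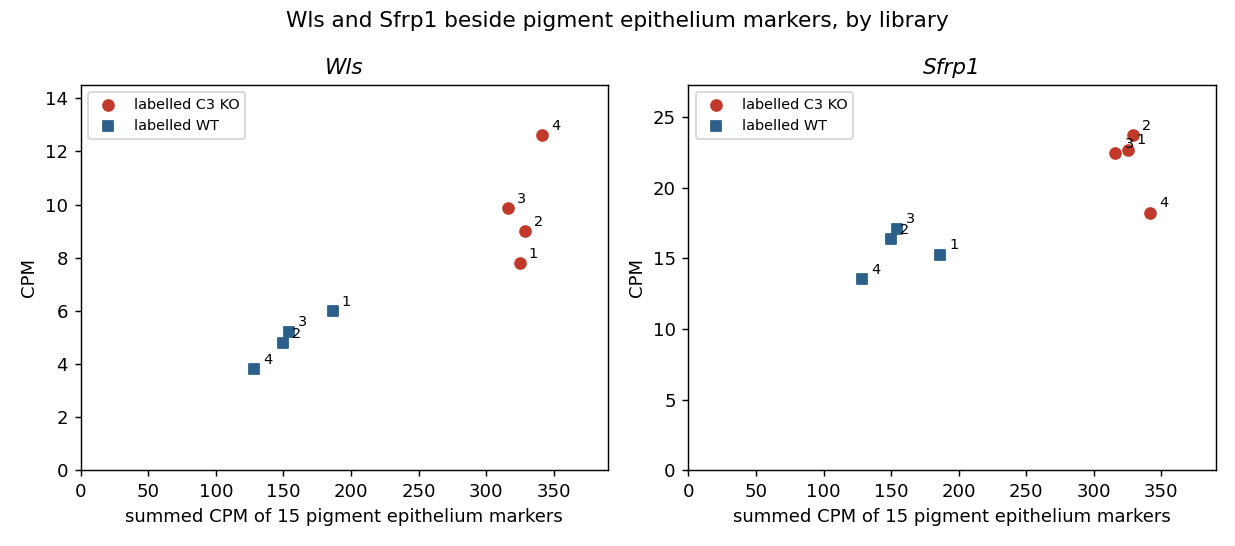
CPM of Wls (left) and Sfrp1 (right) against the summed CPM of 15 pigment epithelium markers, with a point for each of the 8 libraries and its replicate number beside it. The C3 KO-labelled libraries lie at 316 to 342 CPM of marker sum and the WT-labelled libraries at 128 to 187 CPM.

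Promoter sequences are shown for Wls and Fzd5, which moved in opposite directions and were both called under every setting tried. They come from RefSeq on build GRCm38.p6, where 27 of the 41 genes had an entry. The 250 bases before the start of Wls, on the plus strand at chr3:159839400-159839649, and of Fzd5, on the minus strand at chr1:64737751-64738000, read 5′ to 3′ as follows, and the short Wls line lies after the start, at chr3:159839674-159839695, with the letters of a motif in capitals.
Wls before the start: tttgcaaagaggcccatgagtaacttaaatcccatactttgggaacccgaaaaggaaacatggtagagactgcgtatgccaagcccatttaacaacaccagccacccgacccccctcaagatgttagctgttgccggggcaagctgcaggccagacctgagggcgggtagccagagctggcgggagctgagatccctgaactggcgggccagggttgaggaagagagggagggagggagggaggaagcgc
Wls after the start: gggaggcgtgTCATGTGatccg
Fzd5 before the start: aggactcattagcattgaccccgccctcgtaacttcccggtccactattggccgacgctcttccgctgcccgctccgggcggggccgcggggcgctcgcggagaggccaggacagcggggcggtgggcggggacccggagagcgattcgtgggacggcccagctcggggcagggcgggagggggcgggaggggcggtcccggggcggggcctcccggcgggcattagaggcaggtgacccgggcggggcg

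The capitals mark TCATGTG, the letters of the M-box bound by MITF, the pigment cell transcription factor. This motif was picked after the Wls sequence had been read. Its first base is base 35 counted from the start of Wls. Among 27025 promoter windows of 300 bases, 1 a gene, 3.74% held TCATGTG on either strand. Among the 27 windows of Wnt pathway genes 1 did, that of Wls, which is near that share. Its presence there is no result, because the choice of motif came from that sequence. Whether it acts on Wls was not tested. The TCF/LEF core CTTTGAT, on either strand, was in 3.72% of all windows and in 1 of the 27, that of Wnt11. The OTX2/CRX core TAATCC was in 7.16% of all windows and in 1 of the 27, that of Fzd1. These 3 motifs do not overlap one another in the windows shown, and none of their letters is in the Fzd5 window. The printed Fzd5 stretch is 76.4% G and C with 32 CpG dinucleotides, that of Wls 58.0% with 8, and the median over the same 250 bases of all promoters is 52.0% with 6.

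Among the 9 ligands only Wnt5b was called, and it was lower. Wnt5b, a close relative of Wnt5a that signals mainly outside beta-catenin, stood at 4.18, 4.16, 3.44 and 4.03 CPM in C3 KO-labelled replicates 1 to 4, against 4.56, 7.04, 5.10 and 6.58 CPM in WT-labelled replicates 1 to 4. The groups did not overlap, but WT-labelled replicate 1 lay close to the C3 KO-labelled libraries. The log2 fold change was -0.55 ± 0.17 (SE, edgeR adjusted p = 0.0335), and 3 of 8 fits that left out 1 library kept the call, with an adjusted p of up to 0.123. Wnt5b overlaps Fbxl14 on the opposite strand in the GRCm38 annotation, and the sources used here do not say whether reads were counted by strand. Fbxl14 was lower as well, at 28.3 CPM in C3 KO-labelled and 36.1 CPM in WT-labelled libraries (edgeR adjusted p = 0.0184).

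Wnt2b, the ligand of the ciliary margin and the most abundant per length here, was not called. It held 5.86, 9.16, 8.01 and 11.9 CPM in C3 KO-labelled replicates 1 to 4 and 7.48, 5.88, 7.92 and 8.03 CPM in WT-labelled replicates 1 to 4. Its lowest and its highest library both carried the C3 KO label, and the highest, replicate 4, was also the highest for Wls. Of 8 measured markers of the ciliary margin and ciliary body 1 was higher and 2 were lower, and their sum was 118 to 141 CPM in the C3 KO-labelled and 131 to 154 CPM in the WT-labelled libraries. The largest log2 values among ligands that were not called were 0.81 for Wnt4, with a 95% interval of -0.033 to 1.64, and 0.61 for Wnt11, with a 95% interval of -0.054 to 1.27. Wnt4 averaged 1.09 CPM in the C3 KO-labelled and 0.614 CPM in the WT-labelled libraries, and Wnt11, a ligand of non-canonical signalling, averaged 1.60 CPM in the C3 KO-labelled and 1.03 CPM in the WT-labelled libraries. Wnt7b, which macrophages of the mouse eye use to drive hyaloid vessel regression, averaged 2.22 ± 0.524 CPM in the C3 KO-labelled and 2.05 ± 0.595 CPM in the WT-labelled libraries (SD, n = 4 each). Wnt3, Wnt5a, Wnt9a and Wnt9b had log2 values from -0.20 to 0.18, and none was called.

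Frizzled receptors split into 2 that fell and 7 that were not called. Fzd5, a receptor needed for normal eye development in mice, had 44.2, 41.3, 45.5 and 36.8 CPM in C3 KO-labelled replicates 1 to 4 and 53.6, 54.2, 62.6 and 62.5 CPM in WT-labelled replicates 1 to 4. All C3 KO-labelled libraries were below all WT-labelled ones. The means were 42.0 ± 3.88 CPM in the C3 KO-labelled and 58.2 ± 5.01 CPM in the WT-labelled libraries (SD, n = 4 each), 1.39-fold lower (log2 fold change -0.47 ± 0.07 (SE), edgeR adjusted p = 0.000157). Fzd5 made up 18.4% to 21.5% of the summed Frizzled RPKM in the C3 KO-labelled libraries and 23.8% to 28.0% in the WT-labelled libraries.

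Fzd2, a receptor that can bind Wnt5a, had 7.59, 7.23, 10.4 and 7.61 CPM in C3 KO-labelled replicates 1 to 4, against 10.8, 12.1, 11.5 and 12.7 CPM in WT-labelled replicates 1 to 4. C3 KO-labelled replicate 3 stood apart and came near the lowest WT-labelled library, without overlap. The log2 fold change was -0.52 ± 0.13 (SE, edgeR adjusted p = 0.00787), and without C3 KO-labelled replicate 3 it was -0.66 (edgeR adjusted p = 0.0019). Fzd3, an axon guidance receptor and the most abundant Frizzled per length, was at 41.0, 39.3, 36.2 and 36.1 CPM in C3 KO-labelled replicates 1 to 4 and at 41.4, 38.1, 42.3 and 37.4 CPM in WT-labelled replicates 1 to 4. Those groups overlapped, and the 95% interval of its log2 fold change ran from -0.20 to 0.081. Fzd1, Fzd6, Fzd7, Fzd8, Fzd9 and Fzd10 had log2 values from -0.033 to 0.22 with intervals that all included 0.

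Beside Fzd5 and Fzd2, other retinal genes were lower. Of 8 Mueller glia markers 3 were lower and none higher, namely Dkk3, Sox9 and Hes1, and the summed level of the list was 1152 to 1189 CPM in the C3 KO-labelled libraries and 1186 to 1495 CPM in the WT-labelled ones. Among the retinal identity genes Crx, the photoreceptor factor, was lower. Pax6, Pou4f2 and Rbpms, which mark amacrine or ganglion cells, were higher. The part of cell composition in the Fzd5 and Fzd2 results was not tested. Fzd4, the norrin receptor left out of the list, averaged 6.21 ± 0.991 CPM in the C3 KO-labelled and 6.75 ± 1.18 CPM in the WT-labelled libraries (SD, n = 4 each) and was not called.

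**Figure D4:**
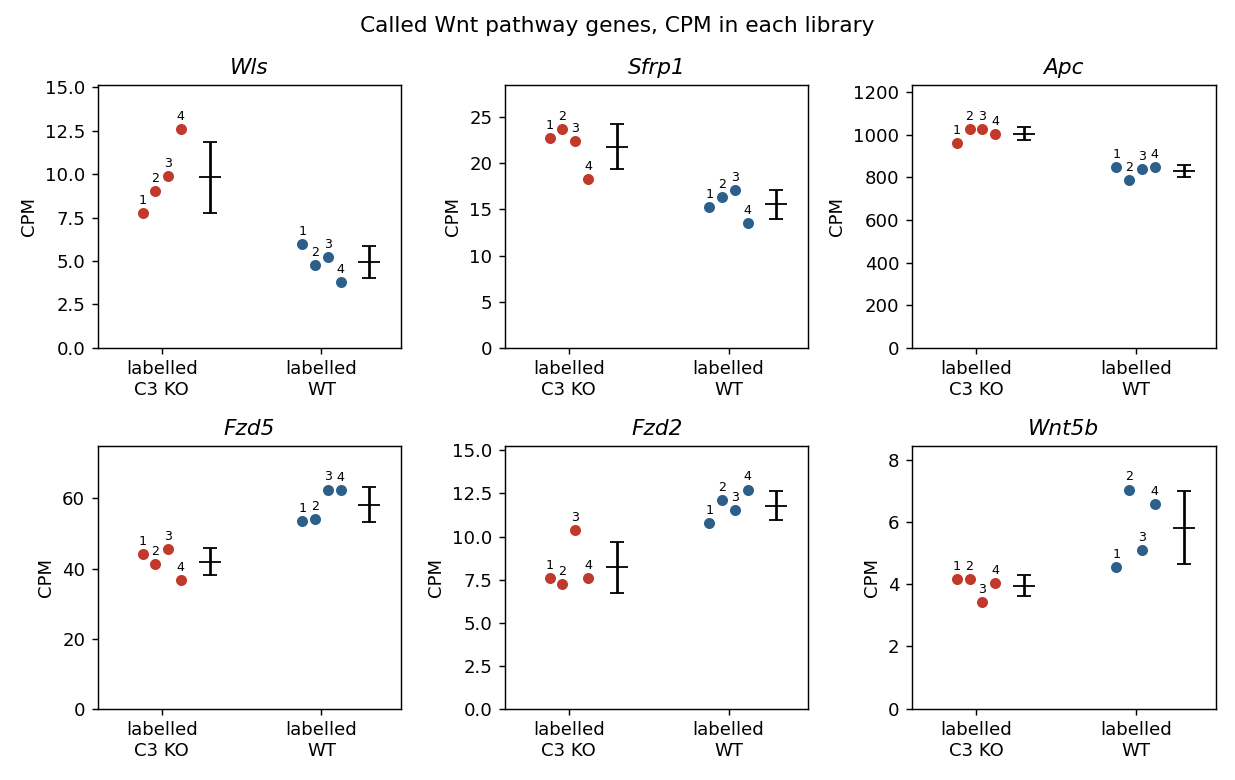
CPM of the 6 called genes in each library (y axis, from 0), with the C3 KO-labelled libraries on the left and the WT-labelled ones on the right of each panel. Numbers are replicates, and the bars beside the points are mean and SD. In none of the 6 panels do the groups overlap.

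None of the 3 other receptors was called. Ryk, a catalytically inactive receptor with roles in axon guidance, was the most abundant at 24.5 RPKM over all libraries, and held 75.1, 78.1, 81.6 and 74.2 CPM in C3 KO-labelled replicates 1 to 4 and 75.6, 88.4, 78.7 and 87.9 CPM in WT-labelled replicates 1 to 4. The groups overlapped. Ror1 and Ror2, receptors for Wnt5a, had log2 fold changes of -0.27 (95% interval -0.58 to 0.048) and -0.048 (95% interval -1.14 to 1.05). Ror2 averaged 0.605 CPM in the C3 KO-labelled and 0.632 CPM in the WT-labelled libraries.

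Among the secreted antagonists Sfrp1 rose. Sfrp1, a Frizzled-related protein that binds Wnt ligands outside the cell, held 22.7, 23.7, 22.5 and 18.2 CPM in C3 KO-labelled replicates 1 to 4, against 15.3, 16.4, 17.1 and 13.5 CPM in WT-labelled replicates 1 to 4. No library of either label crossed into the range of the other. The means were 21.8 ± 2.43 CPM in the C3 KO-labelled and 15.6 ± 1.56 CPM in the WT-labelled libraries (SD, n = 4 each), 1.40-fold higher (log2 fold change 0.48 ± 0.10 (SE), edgeR adjusted p = 0.00225). Replicate 4 was lowest for Sfrp1 under both labels, while the pigment epithelium sum was highest in C3 KO-labelled replicate 4 and lowest in WT-labelled replicate 4. Of 12 fibroblast markers of sclera and choroid 8 were measured, 5 were higher and none lower, and their sum was 208 to 243 CPM in the C3 KO-labelled and 154 to 195 CPM in the WT-labelled libraries. Most of that sum was Pdgfra, a receptor that retinal astrocytes also express, at 214 CPM in the C3 KO-labelled and 161 CPM in the WT-labelled libraries. The part of these cells in the Sfrp1 result was not tested.

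Wif1, a secreted inhibitor that binds Wnt proteins directly, stood at 1.63, 0.833, 1.75 and 1.53 CPM in C3 KO-labelled replicates 1 to 4 and at 0.820, 0.524, 1.49 and 0.302 CPM in WT-labelled replicates 1 to 4. The groups overlapped through WT-labelled replicate 3 and C3 KO-labelled replicate 2. Its log2 fold change was 0.84 ± 0.39 (SE, edgeR adjusted p = 0.152). Of 8 fits that left out 1 library only 1 called it, that without WT-labelled replicate 3 (1.34, edgeR adjusted p = 0.0399). In the others the edgeR adjusted p was up to 0.361. Of 12 other settings of scaling, filter, tool or covariate 0 called it, with an adjusted p of up to 0.837. Sfrp4 and Dkk2 had log2 fold changes of -0.27 and 0.44 with intervals that included 0, and Dkk2, an antagonist that acts on Lrp5 and Lrp6, was below 1 CPM on average under both labels. Across other secreted or membrane-bound regulators of the pathway, listed beside the 41 genes, 1 of 9 tested was higher and 3 were lower. The called share was 44.4% beside the 14.3% of all tested genes, with a median log2 fold change of -0.25. This list was drawn up with earlier results known and took in the left-out Sfrp2 and Dkk3, so its share is no result about such genes. Gpc3, a membrane-anchored proteoglycan that binds Wnt proteins, rose to 25.4 ± 1.28 CPM in the C3 KO-labelled libraries, against 15.8 ± 1.60 CPM in the WT-labelled libraries (SD, n = 4 each, edgeR adjusted p = 2.46e-05). Sfrp2, a relative of Sfrp1, fell to 4.70 ± 1.04 CPM in the C3 KO-labelled libraries, against 7.96 ± 1.25 CPM in the WT-labelled libraries (SD, n = 4 each, edgeR adjusted p = 0.00338). Dkk3 was 1.27-fold lower and the Dkk co-receptor Kremen1 1.22-fold lower. Kremen1 kept its call under 8 of 12 other settings of scaling, filter, tool or covariate, with an adjusted p of up to 0.194, while Gpc3, Sfrp2 and Dkk3 kept theirs under all 12.

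No gene of the R-spondin system was called. R-spondins bind Lgr receptors and keep the ubiquitin ligases Znrf3 and Rnf43 from removing Frizzled proteins from the membrane. Lgr4 was the most abundant of the 4, with 80.4, 76.8, 78.3 and 77.1 CPM in C3 KO-labelled replicates 1 to 4 and 78.1, 85.8, 82.4 and 91.7 CPM in WT-labelled replicates 1 to 4. These ranges overlapped, and the 95% interval of the log2 fold change was -0.23 to 0.0037. Rspo2, the R-spondin among the 41 genes, had 15.9, 14.4, 11.3 and 11.5 CPM in C3 KO-labelled replicates 1 to 4 and 18.6, 16.8, 15.8 and 14.5 CPM in WT-labelled replicates 1 to 4. C3 KO-labelled replicates 2, 3 and 4 lay below every WT-labelled library, while replicate 1 lay within the WT-labelled range (log2 fold change -0.31 ± 0.12 (SE), edgeR adjusted p = 0.0806). Without C3 KO-labelled replicate 1 the edgeR adjusted p was 0.0311, the only call in 8 fits that left out 1 library. In the others the edgeR adjusted p was up to 0.224. Of 12 other settings 2 called it, and the adjusted p was up to 0.582. Lgr5 and Znrf3 had log2 values of -0.19 and -0.033 and were not called.

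Apc was the only cytoplasmic transducer called. Apc, a scaffold of the beta-catenin destruction complex that also binds microtubules, had 964, 1029, 1028 and 1002 CPM in C3 KO-labelled replicates 1 to 4 and 848, 786, 838 and 848 CPM in WT-labelled replicates 1 to 4. The C3 KO-labelled libraries were all higher. Means were 1006 ± 30.7 CPM in the C3 KO-labelled and 830 ± 29.7 CPM in the WT-labelled libraries (SD, n = 4 each), 1.21-fold higher (log2 fold change 0.28 ± 0.05 (SE), edgeR adjusted p = 0.000405). The annotation places the pseudogene Gm10548 on the opposite strand within Apc, and it averaged 1.53 CPM in the C3 KO-labelled and 1.54 CPM in the WT-labelled libraries.

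Its partners in the complex gave narrow intervals around 0. Gsk3a, the kinase with the highest level per length among the 41 genes, had 144, 159, 157 and 159 CPM in C3 KO-labelled replicates 1 to 4 and 161, 141, 150 and 162 CPM in WT-labelled replicates 1 to 4. The groups overlapped fully, and the 95% interval of the log2 fold change was -0.098 to 0.12. For Gsk3b, its paralogue in the same complex, that interval was -0.15 to 0.030, and for the scaffold Axin1 -0.17 to 0.12. Among the Dishevelled proteins, which relay the signal from Frizzled receptors, Dvl1 was the most abundant per length and did not overlap between the labels, at 90.3 to 94.6 CPM in the C3 KO-labelled and 79.9 to 89.8 CPM in the WT-labelled libraries. It was not called (log2 fold change 0.11, edgeR adjusted p = 0.171), nor were Dvl2 and Dvl3, with log2 fold changes of -0.12 and 0.058. Groups without overlap were found for 8 of the 41 genes, 5 higher and 3 lower, beside 9.65% and 7.72% of all tested genes. They were the 6 called genes, Porcn and Dvl1.

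In the Tcf7 family, the nuclear partners of beta-catenin, no gene was called. Tcf7 was at 6.26, 5.83, 6.15 and 6.14 CPM in C3 KO-labelled replicates 1 to 4 and at 5.07, 6.29, 6.59 and 5.13 CPM in WT-labelled replicates 1 to 4, so that the WT-labelled libraries enclosed the others. Tcf7l1 and Tcf7l2 had log2 fold changes of -0.28 (95% interval -0.65 to 0.093) and -0.26 (95% interval -0.59 to 0.061).

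Genes known to respond to beta-catenin gave 1 call among 13 tested, 7.69% beside the 14.3% background, with a median log2 fold change of -0.00073. Of these 13, Tcf7, Lgr5 and Znrf3 are also among the 41 genes. Axin2, a widely used reporter gene of the canonical branch, had 21.3, 21.3, 23.7 and 20.8 CPM in C3 KO-labelled replicates 1 to 4 and 22.9, 20.1, 22.0 and 22.2 CPM in WT-labelled replicates 1 to 4. The groups overlapped, and the 95% interval of its log2 fold change was -0.17 to 0.17. Ccnd1, the G1 cyclin of dividing retinal progenitors, was the called gene, at 954 ± 85.4 CPM in the C3 KO-labelled and 770.0 ± 93.1 CPM in the WT-labelled libraries (SD, n = 4 each, edgeR adjusted p = 0.022). Its call was lost without C3 KO-labelled replicate 1, C3 KO-labelled replicate 3 or WT-labelled replicate 3, with an edgeR adjusted p of up to 0.0657. It was also lost on log2 RPKM with either pseudocount (1 or 0.1), with a covariate for the Y-linked level of each library and when 1 surrogate variable was fitted, with an adjusted p of up to 0.146. Apcdd1 and Nkd1, feedback inhibitors of the pathway, had log2 fold changes of -0.35 (edgeR adjusted p = 0.0867) and -0.19 (edgeR adjusted p = 0.115). Under 2 of 12 other settings and in 2 of 8 fits that left out 1 library Apcdd1 was called lower.

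Across further lists of the pathway the called share was 10% for the intracellular and nuclear machinery, 17.6% for planar cell polarity genes and 16.7% for co-receptor and norrin genes, beside the 14.3% of all tested genes. Among 20 tested genes of the intracellular and nuclear machinery Tle2, a co-repressor of Tcf factors (log2 fold change 0.42, edgeR adjusted p = 0.000871), and Tnik, a kinase that acts with Tcf factors (0.20, edgeR adjusted p = 0.0135), were higher and none was lower, with a median of -0.0079. Tnik lost its call without C3 KO-labelled replicate 4 or WT-labelled replicate 2, with an edgeR adjusted p of up to 0.0867, and on both log2 RPKM scales and with the Y-linked covariate, with an adjusted p of up to 0.208. Tle2 lost its call with that covariate (adjusted p = 0.0934). Ctnnb1, which encodes beta-catenin, stood at 1053 ± 27.8 CPM in the C3 KO-labelled and 1052 ± 40.6 CPM in the WT-labelled libraries (SD, n = 4 each), with a 95% interval of the log2 fold change of -0.098 to 0.099. Of 17 planar cell polarity genes 3 were higher and none lower, with a median of 0.014. They were Celsr3, an atypical cadherin of axon guidance (log2 fold change 0.29, edgeR adjusted p = 0.000495), the large cadherin Fat4 (0.32, edgeR adjusted p = 0.00161) and Ankrd6, a homologue of the fly protein Diego (0.42, edgeR adjusted p = 0.00754). With the Y-linked covariate only Celsr3 of these was called, and Fat4 lost its call on both log2 RPKM scales as well. Among 6 co-receptor and norrin genes Lrp5 was lower and none was higher, with a median of -0.057. Lrp5 lost its call with the Y-linked covariate and with 1 surrogate variable, with an adjusted p of up to 0.0511.

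The 6 calls differed in how they depended on the settings. Wls, Apc and Fzd5 were called under all 12 other settings and in all 8 fits that left out 1 library. Sfrp1 was called in every fit except that with the mean Y-linked log2 CPM added, where its log2 fold change was 0.38 (edgeR adjusted p = 0.171). Fzd2 lost its call with that covariate (edgeR adjusted p = 0.109) and with 1 surrogate variable (edgeR adjusted p = 0.0585), and its sign was kept. Wnt5b was called under 7 of the 12 other settings. The Y-linked covariate correlated with the label at 0.732, so what it shares with the label cannot be told apart from the label.

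**Figure D5:**
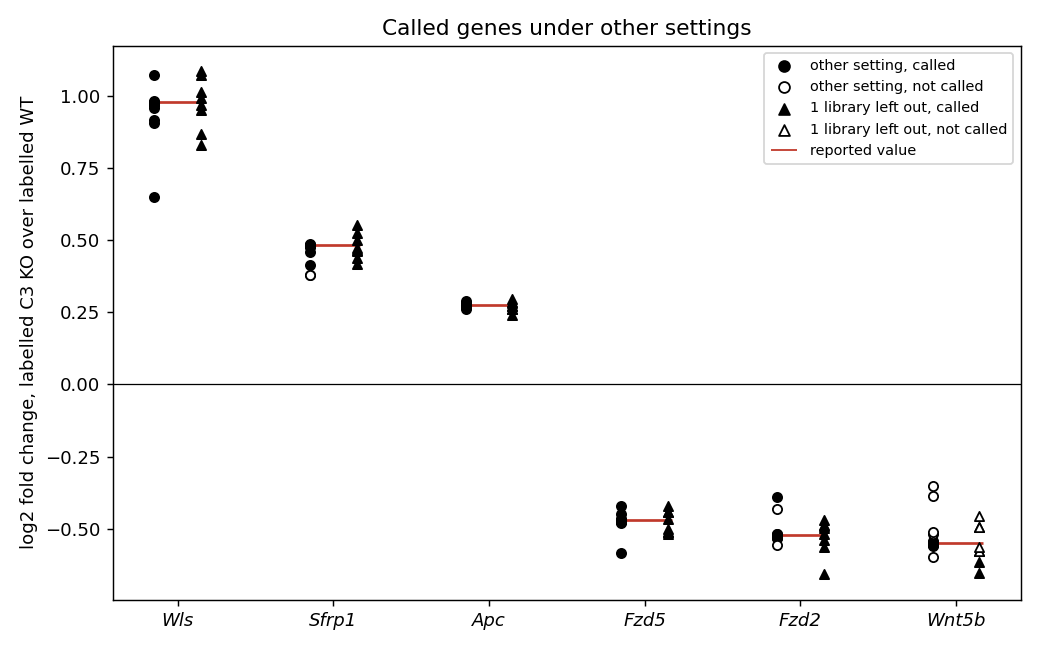
Log2 fold change (C3 KO-labelled over WT-labelled, y axis) of the 6 called genes under 12 other settings (circles) and with 1 library left out in turn (triangles); filled symbols were called, open ones were not, and the red line is the reported value. No value changed sign, and open symbols appear for Sfrp1, Fzd2 and Wnt5b.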

How the data were processed

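Read counts per gene were deposited by the authors without normalization, and a second table holds their log2 RPKM values. STAR, HTSeq and the builds mm9 and NCBIM37 are named in the submitters' processing notes. Annotation and strand setting: not given in the sources used here. Compared with the counts, the deposited log2 values fit the log2 of the count plus about 2 reads, within 0.0133. They were turned back to RPKM for levels.

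The counts were fitted with edgeR 4.0.16 in R 4.3.3, using filterByExpr (15850 of 16109 genes kept), TMM, and the robust quasi-likelihood test of 4 C3 KO-labelled against 4 WT-labelled libraries, with Benjamini-Hochberg adjustment. It was tested on simulated data. Intervals are 95% t intervals from that fit. Alternatives used limma 3.58.1, DESeq2 1.42.0 and sva 3.50.0. The Wnt genes, lists and tests were chosen with earlier results of these data known. Per-library values are given for called genes and the most abundant gene of each role, and Rspo2, Wif1 and Axin2 were added after their values were seen. Opposite-strand overlaps come from GENCODE M21 (GRCm38). No libraries agreed within sampling noise (chi-square per degree of freedom at least 3.72).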

Additional observations from a re-analysis of the deposited data

Results flagged for a closer look

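In 82 groups of 4 libraries (41 genes under each label) 6 held a library whose gap to the nearest of the others was large for the range of the group. Chance flags about 1 in 20 such groups, so 6 is near that rate. C3 KO-labelled replicate 3 was high for Fzd1, at 10.2 CPM against 7.86 to 8.20 CPM in the others, and for Fzd2, at 10.4 CPM against 7.23 to 7.61 CPM. C3 KO-labelled replicate 2 was high for Fzd6, at 14.5 CPM against 11.7 to 11.9 CPM. C3 KO-labelled replicate 1 was low for Gsk3a, at 144 CPM against 157 to 159 CPM. WT-labelled replicate 2 was low for Apc, at 786 CPM against 838 to 848 CPM. WT-labelled replicate 1 was high for Wnt9b, at 1.38 CPM against 0.957 to 1.03 CPM.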

How the results depend on the processing

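Over the 41 genes and 20 settings, 13 values of called genes lost the call, 4 values of uncalled genes (Rspo2 and Wif1) passed, and no called value reversed. The number of Wnt genes called higher was 3 in every fit except 2 with Y-linked log2 CPM in the model and 4 without WT-labelled replicate 3. The number called lower was 1 with Y-linked log2 CPM, and 2 with limma-voom, on both log2 RPKM scales and with 1 surrogate variable. With 1 surrogate variable these were Fzd5 and Rspo2, because Fzd2 and Wnt5b lost their calls. The number called lower was 2 to 3 when 1 library was left out. Without C3 KO-labelled replicate 1, Wnt5b lost its call and Rspo2 gained one. The cause was not tested. Across all tested genes the Y-linked fit called 349 higher and 181 lower, against 1320 and 948. On log2(RPKM + 1) 819 genes were higher, and with 1 surrogate variable 758 were higher and 482 lower. Without C3 KO-labelled replicate 4 the counts were 760 higher and 542 lower. Same-numbered libraries did not deviate together (correlations -0.0597 to 0.0885), so these values showed no pairing by number, though a weak one could be missed. With the replicate block 3 Wnt genes were higher and 4 lower, the added one being Rspo2 (edgeR adjusted p = 0.0372), and 1 of 4 C3 KO-labelled libraries correlated best with its own number. Genes near 1 CPM, such as Ror2, Dkk2 and Wnt4, have intervals too wide to show small differences.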
